A study of Drosophila melanogaster with 4 samples.

Results

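The tubulin isotypes of *D. melanogaster* were compared between testes that lack *nsr* and WT testes. Of 10 listed genes for alpha, beta and gamma tubulin, 8 had a probe set that the array annotation gives to them and to no other gene, 1 probe set each, out of 18769 probe sets tested and 11983 genes with a probe set of their own. They were *alphaTub84D*, *alphaTub85E*, *alphaTub67C*, *betaTub56D*, *betaTub60D*, *betaTub85D*, *betaTub97EF* and *gammaTub37C*. The genes *alphaTub84B* and *gammaTub23C* were not analysed here. Total RNA of 4 samples was hybridized to GeneChip *Drosophila* Genome 2.0 arrays, which carry 1 sample each and read a transcript through several short probes, a probe set. There were 2 arrays of homozygous *nsr* (*CG3875*) knockout males and 2 of WT males, all 0 to 2 days old, numbered by their replicate. The knockout allele, made by ends-in targeting, has lost all but the first bases of the transcribed region and part of the 3′ UTR. The WT line came out of the same targeting as a recombinant that kept the gene, so both lines share that history. Seminal vesicles had been dissected away, and each array had its own RNA extraction. No source used here says whether the extractions came from separate groups of flies, so the p-values rest on a spread that may be technical.

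Microtubules are polymers of alpha and beta tubulin dimers, and gamma tubulin nucleates them at centrosomes and other organizing centres. *Drosophila* has several genes for each class. Spermatogenesis is known for a switch of beta isotype: the early germline and the somatic cells use the general isotype *betaTub56D*, and primary spermatocytes turn on *betaTub85D*, the testis isotype. The protein of *betaTub85D* then builds the meiotic spindle, the cytoplasmic microtubules of the spermatid and the axoneme of the sperm tail. Among the alpha isotypes some are general and others, such as the maternal *alphaTub67C*, are restricted to certain tissues or stages.

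Spermatocyte and spermatid markers were present throughout. All 12 spermatid markers and all 10 spermatocyte markers with a probe set exceeded the highest negative control of every array. So did 2 of 5 cyst and hub cell markers and 5 of 5 muscle markers with a probe set. Likewise above were 3 of 6 markers of fat body and blood cells, 2 of 4 neuronal markers and 1 of 6 accessory gland markers. Array medians were 12.1 and 14.1 for the mutant and 13.5 and 15.7 for WT, in units of intensity, and the highest of 67 negative control probe sets lay between 5.88 and 8.92. With so few arrays the precision of every value is limited. As a check of the labels, *nsr* itself had intensities of 23.2 and 27.6 in the mutant against 549 and 554 in WT, and the difference of -3.78 on the log2 scale (standard error 0.10) passed the test (adjusted p = 0.00837 from limma).

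The testis isotype *betaTub85D* was the brightest of the 8 tubulin probe sets on every array. It had intensities of 3938 and 4329 on *nsr* mutant 1 and 2 and of 3912 and 4674 on WT 1 and 2. The ranges of the genotypes overlapped, with both mutant values between the 2 WT values. Its rank among the 18769 probe sets was 46 and 36 in the mutant and 55 and 38 in WT. *alphaTub85E*, an alpha isotype known from developing muscle and from somatic cells of the testis, had 1552 and 1446 in the mutant and 1639 and 1715 in WT. The general isotype *betaTub56D* had 972 and 1008 in the mutant and 1075 and 1266 in WT. *betaTub60D*, known from muscle, sense organs and other somatic cells during development, had 681.7 and 681.8 in the mutant and 730.4 and 846 in WT. In each of these 3 genes the higher mutant value was lower than the lower WT value.

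The other 4 isotypes were dim. *betaTub97EF*, a beta isotype of the gut and other somatic tissue, had 56.0 and 48.1 in the mutant and 60.9 and 68.7 in WT. It was the dimmest of the 5 isotypes that exceeded the negative controls on all 4 arrays, and its mutant values also lay below its WT values. The gamma isotype *gammaTub37C*, known from the ovary and the early embryo, had 12.8 and 9.28 in the mutant and 5.43 and 14.1 in WT. These values exceeded the negative controls on 3 arrays, all but WT 1, and the genotypes overlapped. *alphaTub84D*, whose protein is nearly the same as that of *alphaTub84B*, had 2.39 and 5.09 in the mutant and 3.11 and 5.78 in WT. *alphaTub67C*, which is laid down in the egg, had 5.06 and 4.46 in the mutant and 5.65 and 2.42 in WT. Neither of these was above the negative controls on any array, so that their level was bounded but not measured and no fold change is given. This says that those probes gave no signal above background, not that the transcripts were absent from the testis.

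**Figure D1:**
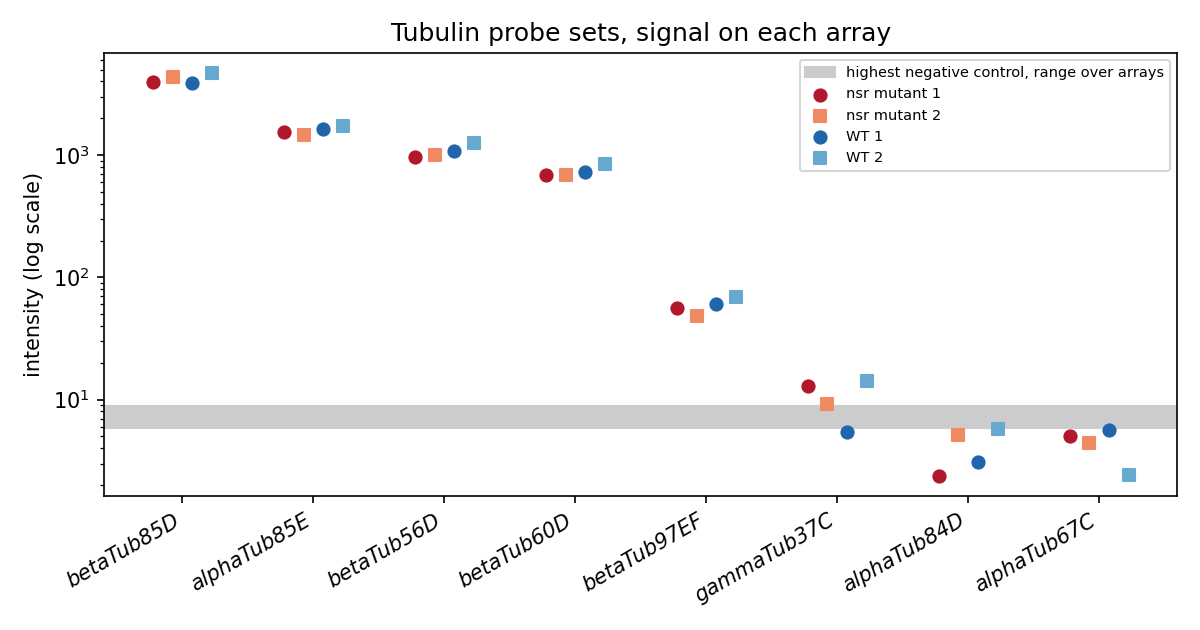
Intensity (log scale) of the 8 tubulin probe sets on each of the 4 arrays, in order of their WT mean, with the range of the highest negative control over the arrays in grey. *betaTub85D* lies between 3912 and 4674, 4 further isotypes lie above the grey band on all 4 arrays, *gammaTub37C* lies across it, and *alphaTub84D* and *alphaTub67C* do not exceed the highest negative control of their own array.

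In order of signal, *betaTub85D* was followed by *alphaTub85E*, *betaTub56D*, *betaTub60D*, *betaTub97EF* and *gammaTub37C*, and no neighbours among these 6 had overlapping values. *alphaTub84D* and *alphaTub67C* came last, with values that overlapped each other and, in part, those of *gammaTub37C*. Probes differ in how strongly they bind, and the deposited values are not scaled by probe or by length, so this is an order of signals and not of transcript numbers.

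No tubulin isotype passed the test for a difference between *nsr* mutant and WT testes. The comparison used limma on log2(intensity + 16), with calls at an adjusted p under 0.05 over all 18769 probe sets. Of the 8 isotypes 0 were called and 0 had an unadjusted p under 0.05, beside 0.00533% and 7.13% of all probe sets. Among probe sets above the negative controls on all 4 arrays these shares were 0.0103% and 9.35%. The only probe set called was that of *nsr*, the gene knocked out, so the share called is no measure of other changes. The log2 fold change of *betaTub85D* was -0.050 (standard error 0.13, 95% interval -0.39 to 0.29, adjusted p = 0.981 from limma). As a ratio of intensities its mutant mean was 0.963 of its WT mean. On the log2(intensity + 16) scale the interval runs from 0.765-fold to 1.22-fold, and a change within these limits could not be told from the spread between arrays. The direction itself depended on the scaling of the arrays, since the log2 fold change was 0.021 with array medians centred, 0.049 after quantile and 0.052 after loess normalization. It was also above 0 without *nsr* mutant 1 (0.018) and without WT 2 (0.078).

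The other 4 isotypes above background had lower mutant means, by small amounts. *betaTub97EF* had a log2 fold change of -0.25 (standard error 0.11, 95% interval -0.54 to 0.05, adjusted p = 0.728 from limma). For *betaTub56D* it was -0.23 (95% interval -0.54 to 0.07) and for *betaTub60D* -0.20 (95% interval -0.49 to 0.09). *alphaTub85E* had -0.16 (standard error 0.10, 95% interval -0.41 to 0.09, adjusted p = 0.778 from limma). These sizes moved with the setting, though the sign did not. Without WT 2 the values were -0.12 for *betaTub56D* and -0.097 for *betaTub60D*, and without WT 1 that of *betaTub60D* was -0.31. For *betaTub97EF* the value was -0.16 without *nsr* mutant 2. After quantile normalization *alphaTub85E* had -0.052, *betaTub56D* -0.12, *betaTub60D* -0.10 and *betaTub97EF* -0.15. The intervals of all 5 isotypes, as deposited, lay inside a 2-fold change in either direction. On this scale, which compresses differences between values as dim as these, *gammaTub37C* had a log2 fold change of 0.088 (95% interval -0.41 to 0.59). It was -0.0064 without *nsr* mutant 1 and -0.16 without WT 1, so no direction is read from it. In bulk tissue fewer cells of a type and less RNA per cell cannot be told apart.

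**Figure D2:**
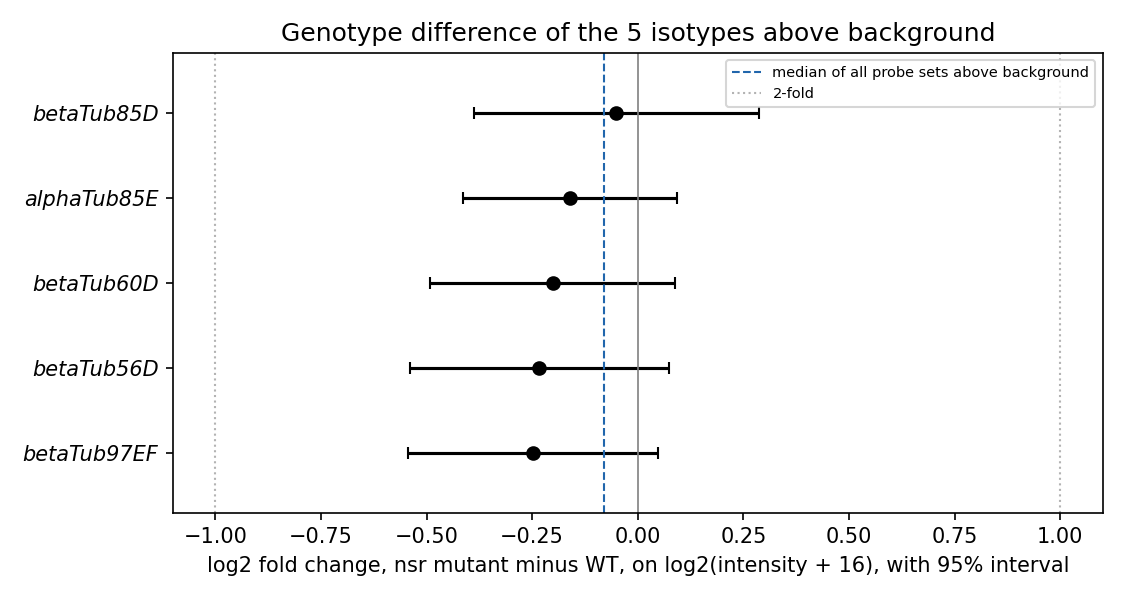
Log2 fold change of the 5 isotypes above background, *nsr* mutant minus WT on log2(intensity + 16), with 95% intervals from limma; the dashed line is the median of all probe sets above background and dotted lines mark 2-fold. Each interval holds 0 and lies inside the 2-fold lines, and *betaTub85D*, at -0.050, lies nearest to 0.

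The array as a whole leaned the same way. As deposited, the median log2 fold change was -0.044 over all probe sets, against -0.11 over the 8 isotypes. It was -0.079 over the 9743 probe sets above the negative controls on all 4 arrays, against -0.20 over the 5 isotypes above background. After quantile normalization the median was 0.011 over the probe sets above background and -0.10 over the 5 isotypes. Both mutant values were under both WT values in 4 of the 8 isotypes, which are 4 of the 5 above background, beside 24.9% of all probe sets and 27.7% of those above background. In 0 of the 8 were both mutant values over both WT values, beside 10.2% of all probe sets and 7.86% of those above background. The count of 4 depended on the scale of the arrays, in settings chosen after the data were seen. With array medians centred *betaTub56D*, *betaTub60D* and *betaTub97EF* remained below (3 isotypes, beside 16.5% of all probe sets and 23.3% of those above background). After loess *betaTub56D* and *betaTub60D* did (2 isotypes, beside 20.4% and 23.5%), and after quantile normalization *betaTub56D* (1 isotype, beside 20.2% and 22.5%).

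The duplicate arrays did not move all isotypes alike. *betaTub85D* was 1.099 times as bright on *nsr* mutant 2 as on *nsr* mutant 1 and 1.195 times as bright on WT 2 as on WT 1, in the same direction as the array medians. *betaTub56D* had 1.04 and 1.18 for the same ratios and *betaTub60D* 1.0002 and 1.159. *alphaTub85E* was instead dimmer on *nsr* mutant 2, with ratios of 0.932 and 1.05, and so was *betaTub97EF*, with 0.858 and 1.13.

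A ratio taken within each array removes a scale factor that all probe sets of an array share, and was used to compare the testis isotype with the other isotypes. For *betaTub85D* over *betaTub56D* the log2 ratio was 2.00 and 2.08 in the mutant and 1.85 and 1.87 in WT. The mutant ratios were both over the WT ratios, and the difference of the means was 0.18. Over *betaTub60D* the log2 ratio was 2.50 and 2.64 in the mutant and 2.40 and 2.44 in WT, again without overlap, a difference of 0.15. Over *betaTub97EF* it was 5.78 and 6.08 against 5.68 and 5.79, and over *alphaTub85E* 1.33 and 1.57 against 1.25 and 1.44, and in both of these the genotypes overlapped. The last 2 differences were 0.20 and 0.11. That over *betaTub97EF* was 0.26 with a pseudocount of 1 and 0.10 with a pseudocount of 64. Of 7 pairs compared, those with *betaTub56D* and *betaTub60D* had p = 0.333 in a two-sided exact permutation test, the smallest that 2 against 2 arrays can give, and p = 0.933 adjusted over the pairs. This exact test cannot reach 0.05 with so few arrays, and the values are a description. The genotypes overlapped over *betaTub60D* after quantile normalization (p = 0.667 in the exact test), and did not overlap over *betaTub97EF* with a pseudocount of 1 or after loess normalization. Without *nsr* mutant 2 the difference was 0.083 over *betaTub60D*, 0.046 over *betaTub97EF* and -0.0081 over *alphaTub85E*. Without *nsr* mutant 1 it was 0.35 over *betaTub97EF* and 0.23 over *alphaTub85E*. Over *alphaTub85E* it was 0.015 without WT 1 and 0.21 without WT 2. The difference over *betaTub56D* lay between 0.14 and 0.23 with any 1 array left out. The pairs with *alphaTub84D*, *alphaTub67C* and *gammaTub37C* rest on signals at or near background, and no reading is taken from them.

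**Figure D3:**
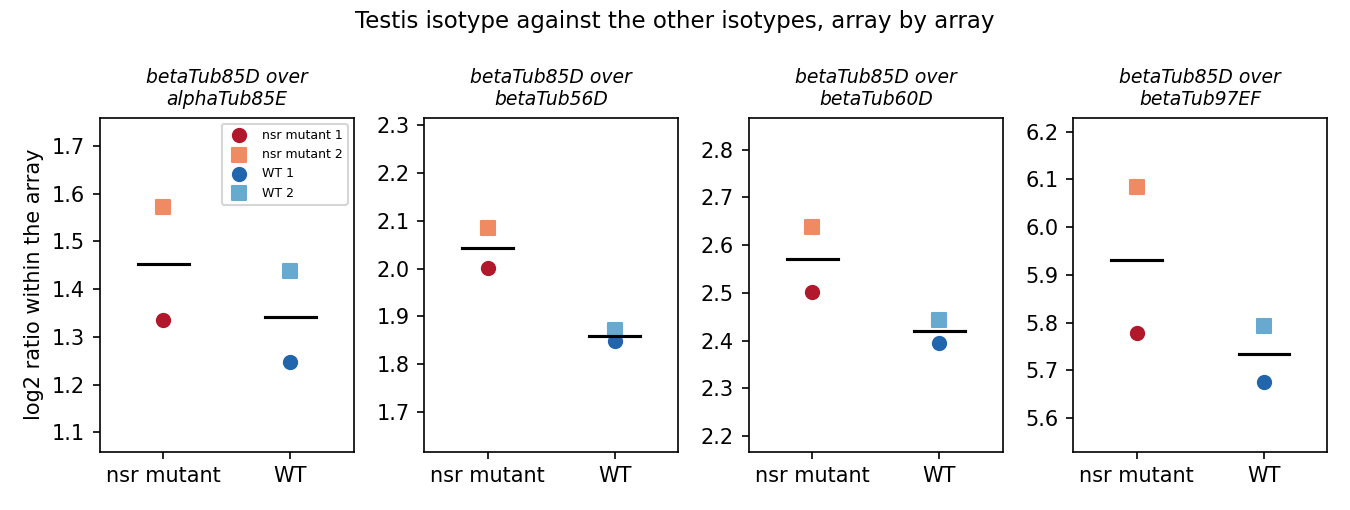
Log2 ratio of *betaTub85D* to each of the 4 other isotypes above background, within each array, with genotype means as bars; all panels span the same log2 range. Both mutant arrays lie above both WT arrays over *betaTub56D* (2.00 and 2.08 against 1.85 and 1.87) and over *betaTub60D*, while the genotypes overlap over *alphaTub85E* and *betaTub97EF*.

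The isotypes with lower mutant values are known from somatic cells or from the early germline, and markers of those cells were read beside them. Of the cyst and hub cell markers 5 had a probe set and 2 of them, *so* and *eya*, exceeded the negative controls on every array. The summed intensity of the 5 was 187 and 145 in the mutant and 216 and 221 in WT. Of the 2, *so* had 50.4 and 57.4 in the mutant and 81.7 and 93.4 in WT, without overlap. *eya* had 125 and 77.7 against 114 and 120, which overlap. The cyst cell marker *tj* and the hub ligand gene *upd1* were at background on all 4 arrays. The 5 muscle markers with a probe set, all above background, summed to 910 and 1017 in the mutant and 858 and 943 in WT, most of it from *Mlp60A*. The flight muscle actin *Act88F* had 77.6 and 56.1 in the mutant and 36.2 and 26.8 in WT, without overlap (log2 fold change 0.80, adjusted p = 0.690 from limma). In the other muscle markers, *Tm2*, *up*, *Mlc2* and *Mlp60A*, the genotypes overlapped, with log2 fold changes of 0.17, 0.082, -0.051 and 0.025. For 3 early germline markers the sums were 154 and 179 against 155 and 203, most of it from *bgcn*. For 4 neuronal markers, of which *elav* was at background, the sums were 68.0 and 87.4 against 111 and 98.0. Of these *nSyb* had 41.4 and 51.1 against 79.5 and 73.9, while *brp* overlapped and *Rdl*, above background on 1 array, was higher in the mutant. The sums of 10 spermatocyte markers were 2253 and 2745 against 2420 and 2900. The brightest of them, *bol*, had 1010 and 1399 against 1256 and 1496. The median log2 fold change of the 10 was 0.00055, with 5 of them below 0. For 12 spermatid markers the sums were 30775 and 33211 against 32838 and 35220, with a median of -0.10 and 8 below 0. Beside these stand 62.6% of all probe sets and 68.0% of those above background. The part that any of these sums has in the isotype values was not tested.

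Gene length and the controls of RNA quality were also read beside the differences. In the gene table *betaTub85D* and *alphaTub85E* span 1900 and 2030 bases, *betaTub56D* 4282, *betaTub60D* 7219 and *betaTub97EF* 21377, so that the 3 isotypes with the lowest log2 fold changes have the 3 longest genes of these 5. Across 8174 genes above background, which are not independent replicates, the Spearman correlation of log2 fold change with gene length was -0.289. The ratio of 5′ to 3′ signal of the actin control was 0.745 and 0.687 in the mutant and 0.823 and 0.783 in WT. That of another actin control was 0.229 and 0.227 against 0.297 and 0.264, also without overlap. The genotypes overlapped for GAPDH (0.598 and 0.592 against 0.637 and 0.545) and for eIF-4a (0.321 and 0.355 against 0.348 and 0.367). The part of length and RNA quality in the isotype values was not tested.

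Another 2 genes encode tubulin-like proteins and are not among the 10. The beta tubulin relative *betaTub65B* had intensities of 571 and 716 in the mutant and 727 and 828 in WT (log2 fold change -0.27, standard error 0.15, adjusted p = 0.764 from limma). Its genotypes did not overlap. The alpha tubulin relative *CG7794* had 611 and 746 in the mutant and 709 and 907 in WT, which overlap (log2 fold change -0.24, adjusted p = 0.811 from limma). Both were far above the negative controls on every array, unlike *alphaTub84D* and *alphaTub67C*.

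None of the genes that fold, modify or bind tubulin passed the test either. Tubulin folding, by the chaperonin CCT, prefoldin and the tubulin cofactors, was represented by 19 genes of 21 listed, all above background. Their median log2 fold change was 0.0099 as deposited and 0.12 after quantile normalization, beside -0.079 and 0.011 over all probe sets above background. Below 0 were 7 of the 19 as deposited, 3 with array medians centred, 0 after quantile and 2 after loess normalization. Beside these stand 68.0%, 51.8%, 47.7% and 49.1% of probe sets above background. *Tbcd*, a tubulin cofactor, had 43.6 and 51.0 in the mutant and 43.4 and 37.7 in WT, a log2 fold change of 0.16 and the 1 gene of the list whose genotypes did not overlap. Mutant values were thus over WT in 1 of 19 and under WT in 0, beside 10.2% and 24.9% of all probe sets. The values for *Tbcb* and the CCT subunit gene *CCT2* were 0.15 and 0.11. Of 10 genes of the gamma-tubulin ring complex, which holds gamma tubulin at nucleation sites, 9 were above background on all 4 arrays. The median was -0.11 over the 10 and -0.067 over the 9. The genotypes of *t-Grip91*, a testis paralog of *Grip91*, did not overlap, but *nsr* mutant 2 (202.87) and WT 1 (202.88) were nearly equal, with 95.04 in *nsr* mutant 1 and 239.98 in WT 2, a log2 fold change of -0.60 (standard error 0.34, adjusted p = 0.767 from limma). *Grip75* and *Grip84* had -0.17 and -0.16.

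Tubulin modification was covered by 16 genes, most of them ligases that add glutamate or glycine to tubulin tails. Their median log2 fold change was -0.18, with 14 genes below 0, beside 62.6% of all probe sets and 68.0% of those above background. Both mutant values were under both WT values in 8 of the 16 and over them in 1, beside 24.9% and 10.2% of all probe sets. Among the 13 above background on all 4 arrays the counts were 7 and 0, beside 27.7% and 7.86% of such probe sets. *TTLL6A* had 1197 and 1365 in the mutant and 1637 and 1772 in WT, a log2 fold change of -0.41 (standard error 0.11, adjusted p = 0.690 from limma). *TTLL5* had 172 and 232 against 291 and 326 (-0.59), and *TTLL3B* 321 and 386 against 445 and 576 (-0.51). These 3 genes were named because they had the smallest unadjusted p-values of the 16 (0.0167, 0.0172 and 0.0311 from limma). Their differences are thus picked for size and are not set against those of the isotypes. An unadjusted p under 0.05 from limma was seen in 7.13% of all probe sets and 9.35% of those above background. With array medians centred 13 of the 16 were below 0 (median -0.11), beside 42.8% of all probe sets and 51.8% of those above background. After quantile normalization 12 were below 0 (median -0.10), beside 48.6% and 47.7%.

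Of 22 listed genes that bind or sever microtubules 19 had a probe set, and 0 passed the test. Their median log2 fold change was -0.19, with all 19 below 0 as deposited, 15 with array medians centred and 14 after quantile or loess normalization. Beside these stand 62.6%, 42.8%, 48.6% and 49.2% of all probe sets. Among probe sets above background on all 4 arrays the shares were 68.0%, 51.8%, 47.7% and 49.1%. Genotypes did not overlap in 5 of the 19, all with the mutant lower, a share near the 24.9% of all probe sets. Among the 18 above background on all 4 arrays there were 4, beside 27.7% of such probe sets. The spectraplakin gene *shot* had 29.5 and 41.0 in the mutant and 46.1 and 47.4 in WT (-0.30), and the centrosomal gene *tacc* had 123 and 175 against 182 and 224 (-0.42). The neuronal gene *futsch*, which had the smallest unadjusted p of the list, was at background on all 4 arrays. Among 7 axonemal genes of 9 listed the median was -0.038 as deposited and 0.033 with array medians centred. *Tektin-A*, a filament protein of doublet microtubules, had 760.3 and 760.5 in the mutant and 908 and 1147 in WT, a log2 fold change of -0.42 (standard error 0.14, adjusted p = 0.690 from limma). *Bug22* and the radial spoke gene *Rsph3* had -0.21 and 0.19. The members of these lists were tested with the same 4 arrays as the isotypes.

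**Figure D4:**
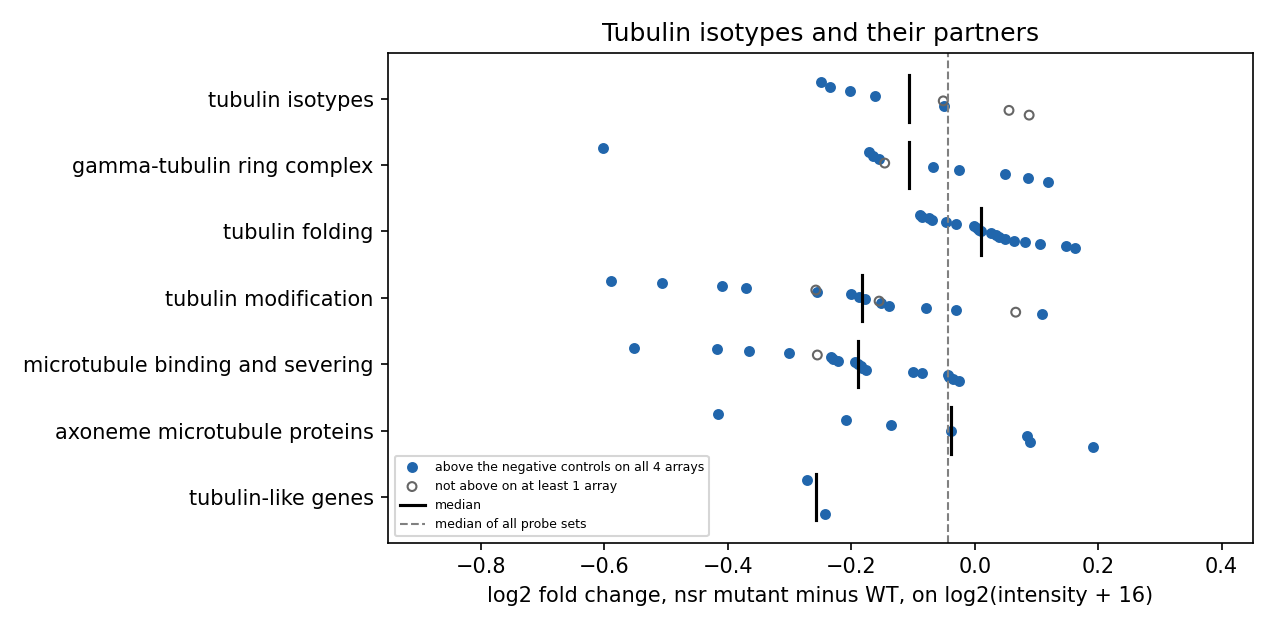
Log2 fold change, *nsr* mutant minus WT on log2(intensity + 16), of each tubulin isotype and of each gene of the lists of tubulin partners, with list medians as bars and the median of all probe sets as a dashed line. Filled points are above the negative controls on all 4 arrays; the list medians lie between -0.26 and 0.0099, and the lowest value is that of *t-Grip91* at -0.60.

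The profile of *betaTub85D* over the 4 arrays was set against those of 8607 other probe sets with 1 gene that were above background on all arrays. Likeness was the root mean square difference between log2 values, each centred on its own mean over the 4 arrays. The closest 3 were *Impbeta11* (0.00585), *CG7848* (0.00645) and *ttv* (0.00857). *Impbeta11*, an importin gene, had 50.2 and 56.2 in the mutant and 49.7 and 61.9 in WT. The other isotypes were farther away, with *betaTub60D* at position 2908 (0.0911), *betaTub56D* at 3242 (0.0966), *alphaTub85E* at 4768 (0.121) and *betaTub97EF* at 6345 (0.152). With 4 arrays such a profile mostly follows the brightness of the arrays, and nothing on shared control is read from it.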

How the data were processed

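Testis RNA of 2 *nsr* mutant and 2 WT samples was measured on 1-colour arrays. Each probe set has 1 deposited value per array, an intensity on a linear scale. For the way the authors summarised probes, subtracted background or scaled arrays, the method was not given in the sources used here. Neither array medians nor trimmed means were equal. Values were used as deposited.

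After 183 control probe sets were left out, 18769 were tested. They were named through the platform annotation, updated by gene ID through a table of genome release 6, which held 13544 of the 13647 probe sets with 1 gene. Several genes were given for 402 and none for 4720. A probe set was above background where it exceeded the highest of 67 negative controls of its array. Where a listed gene had several probe sets, the brightest over the 4 arrays stood for it.

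The test of genotype was that of limma 3.58.1 (lmFit, eBayes; R 4.3.3) on log2(intensity + 16), two-sided, without covariates, with Benjamini-Hochberg adjustment over all probe sets. The paper's methods name SAM, whose software was not used here. Within-array ratios, on log2(intensity + 16), were compared with exact permutation tests (scipy 1.17.1). Every isotype was named, with up to 3 genes of each partner list by smallest unadjusted p, and the 3 profiles closest to *betaTub85D*. The members and lists were chosen with earlier results of these data known. The limma steps were tested on simulated data. Python 3.11.15 with numpy 2.4.6, pandas 2.3.3 and matplotlib 3.10.9 made the tables and figures. No sequences were printed, since no sequence table was used here. Alternatives were pseudocounts of 1 and 64, 3 array scalings, a filter on dim probe sets, an intensity trend in the prior, a block on replicate number, each array left out in turn, and averaging the probe sets of each gene.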

Additional observations from a re-analysis of the deposited data

How the results depend on the processing

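With 2 arrays per genotype, small differences could not be told from the spread. In each of the 13 alternatives 0 of the isotypes tested were called. *alphaTub85E*, *betaTub56D*, *betaTub60D* and *betaTub97EF* kept a log2 fold change below 0 in all 13 alternatives, from -0.21 to -0.052, -0.35 to -0.12, -0.31 to -0.097 and -0.33 to -0.15 in that order. That of *betaTub85D* turned to 0.021 with array medians centred, 0.049 after quantile and 0.052 after loess normalization, and ran from -0.18 to 0.078 with 1 array left out. *gammaTub37C* ran from -0.16 to 0.33 with 1 array left out. The difference in the log2 ratio of *betaTub85D* to *alphaTub85E* ran from -0.0081, without *nsr* mutant 2, to 0.23. The number of isotypes with both mutant arrays below both WT arrays was 4 as deposited, 3 with medians centred, 2 after loess and 1 after quantile normalization. The shares of probe sets above background were 27.7%, 23.3%, 23.5% and 22.5% in that order. The scalings were chosen for this count after seeing the data. The number of probe sets called over the array, 1 as reported, was 0 with a pseudocount of 1 and without any 1 array. It was 3 after quantile normalization (1 higher and 2 lower), 2 after loess, 111 with medians centred (37 higher and 74 lower) and 120 after dimmer probe sets were dropped (22 higher and 98 lower). The degrees of freedom of limma's prior on the variance were 2.79 as deposited, 24.4 with medians centred and infinite with dimmer probe sets dropped. After quantile and loess normalization they were 2.73 and 2.83. Fewer probe sets were tested where dimmer ones were dropped. The cause of the different counts was not tested. With the replicate number as a block 2 probe sets were called and the log2 fold change of *betaTub85D* was -0.050 (adjusted p = 0.888 from limma). The arrays share only a number, and the differences between duplicates correlated at 0.15 over all probe sets.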
